A study of Mus musculus with 92 samples.

Results

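The exocyst is a protein complex that tethers secretory vesicles to the plasma membrane before they fuse with it. The genes described here are its 8 subunit genes (Exoc1 to Exoc8) and Exoc3l, a paralog of Exoc3 that is not a core subunit, and they were followed through every RNA-seq and SLAM-seq group of the series. The genes were found by symbol, each matched 1 of the 56953 gene IDs in the files, and all 9 passed the filter on low counts in both assays.

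The cells were mouse embryonic stem cells of the B6 line, grown in serum with LIF, PD0325901 and CHIR99021. In each line a gene for GABP, an ETS-family transcription factor, carried a dTAG degron on both alleles, so that the small molecule dTAG-13 leads the tagged protein to degradation. The genotypes were GabpadTAG/dTAG (the DNA-binding subunit), Gabpb1dTAG/dTAG (a partner subunit) and Gabpb1/b2dTAG/dTAG (both partner subunits), called here the GABPA, GABPB1 and GABPB1/GABPB2 lines. RNA-seq compared 500 nM dTAG-13 with DMSO at 12 h in all 3 lines, which gave 12 libraries in 6 groups. SLAM-seq followed the GABPA line alone at 1, 2, 4 and 12 h and gave 14 libraries in 7 groups. In SLAM-seq, RNA made during labelling takes up 500 µM 4-thiouridine and its reads carry T-to-C conversions, so that converted reads count new RNA and all reads count old and new RNA together. The 2 h and 4 h dTAG-13 groups shared a DMSO group, whose titles name 2 to 4 h and whose time label gives 2 hours. Every group held 2 libraries, which the series describes as biological duplicates, so each p-value rests on the spread between duplicates pooled over the groups of an assay. All control cells carried the same degron alleles as the treated cells, and no untagged cells were compared here. Whether each line was 1 clone was not given in the sources used here.

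In mammalian cells the complex forms from a pair of modules, Exoc1 to Exoc4 and Exoc5 to Exoc8. Exoc1 and Exoc7 bind phosphoinositides of the plasma membrane, Exoc6 binds Rab GTPases on the vesicle, and Exoc2 and Exoc8 are effectors of Ral GTPases. Exoc3, Exoc4 and Exoc5 hold the assembly together, and Exoc3 also contacts the SNARE fusion machinery.

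RNA-seq libraries held 15957983 to 32091586 expected counts. SLAM-seq libraries held 11477034 to 30690961 reads in gene intervals, of which 5.06% to 14.1% were converted. The largest was dTAG-13 library 1 at 12 h, so leaving it out is given beside each call that it decided. The summed level of 8 stem cell markers was 5636 to 7514 CPM (counts scaled to the size of the library) in RNA-seq, against 4.30 to 10.6 CPM for 6 feeder fibroblast markers and 6.44 to 26.0 CPM for 6 markers of differentiated cells. After dTAG-13 in RNA-seq of the GABPA line 1 of the 8 stem cell markers was lower and 3 were higher. In all SLAM-seq reads at 12 h the feeder markers summed to 2.37 and 2.35 CPM in DMSO and 5.17 and 7.24 CPM with dTAG-13. There the 8 stem cell markers summed to 8187 and 7962 CPM in DMSO and 5702 and 5801 CPM with dTAG-13. Of these markers 3 were lower and 1 was higher, against 27.6% and 29.8% of all genes. Their part in the results was not tested. The Gabpa transcript was 0.50 ± 0.0768 higher on the log2 scale with dTAG-13 in RNA-seq of the GABPA line. This is no check of the degradation, since dTAG-13 acts on the protein and protein was not measured in these libraries.

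The promoters of the members with the largest falls are shown because GABPA binds DNA through the letters CCGGAAG that ETS factors recognise. These letters were searched on both strands of RefSeq windows of 300 bases, from 250 before to 50 after each gene start on GRCm38.p6. The letters stood in 8.86% of all 32851 windows and in at least 1 window of 9.93% of 27025 genes. Of the 8 members with a window, 3 held them, namely Exoc1, Exoc3 and Exoc5. The windows of Exoc2, Exoc4, Exoc6, Exoc7 and Exoc8 did not hold these letters, and Exoc3l had no entry. Only this exact run was counted, so a window without it may still hold another form of ETS site. The overlapping run CGGAAGTG, read on either strand, stands in a window of Exoc2, Exoc4 and Exoc7, and also in that of Exoc3. Its share over all windows was not counted. Each sequence below is 5′ to 3′ along the gene's strand, with the match in capitals, where it reads as the reverse complement CTTCCGG.
Exoc3, chr13:74208651-74208950, minus strand, match from base 2 of the gene: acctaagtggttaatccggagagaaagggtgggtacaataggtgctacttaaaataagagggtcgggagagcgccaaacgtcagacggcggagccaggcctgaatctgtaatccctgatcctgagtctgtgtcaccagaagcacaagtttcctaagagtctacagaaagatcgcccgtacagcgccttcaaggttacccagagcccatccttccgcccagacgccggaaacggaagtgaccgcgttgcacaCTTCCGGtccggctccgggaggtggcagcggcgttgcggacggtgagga
Exoc1, chr5:76529057-76529356, plus strand, match from 5 bases before the gene start: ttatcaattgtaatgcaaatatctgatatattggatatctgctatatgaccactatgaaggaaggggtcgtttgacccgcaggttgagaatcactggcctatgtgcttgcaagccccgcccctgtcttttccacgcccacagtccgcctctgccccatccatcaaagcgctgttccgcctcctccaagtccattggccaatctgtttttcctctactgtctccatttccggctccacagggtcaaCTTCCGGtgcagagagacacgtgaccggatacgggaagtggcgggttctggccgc
Exoc5, chr14:49066618-49066917, minus strand, match from base 18 of the gene: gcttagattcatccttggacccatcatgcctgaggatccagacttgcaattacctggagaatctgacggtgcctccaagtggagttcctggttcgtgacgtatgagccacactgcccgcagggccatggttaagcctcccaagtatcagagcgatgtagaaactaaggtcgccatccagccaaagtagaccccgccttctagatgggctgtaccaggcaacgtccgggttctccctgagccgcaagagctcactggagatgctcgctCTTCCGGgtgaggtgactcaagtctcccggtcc
Exoc1 had 4 annotated starts whose windows overlap, and all 4 held the same match. A match is a description of these letters and does not show that GABPA was bound there.

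Before treatment the subunits were not made in equal amounts of RNA. Levels between genes are given in TPM, which scale by transcript length as well as by library size. In the GABPA line under DMSO, Exoc4 was highest at 47.0 and 49.3 TPM. It was followed by Exoc3l at 27.3 and 27.6 TPM, Exoc7 at 17.4 and 17.7 TPM, Exoc3 at 14.6 and 14.9 TPM, and Exoc1 at 13.1 and 13.8 TPM. Exoc5 (9.36 and 10.4 TPM), Exoc2 (8.27 and 8.96 TPM), Exoc8 (8.17 and 8.61 TPM) and Exoc6 (7.73 and 7.82 TPM) were lowest. In that order only Exoc2 and Exoc8 overlapped as neighbours. Exoc4 was the highest member in all 6 RNA-seq groups.

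**Figure D1:**
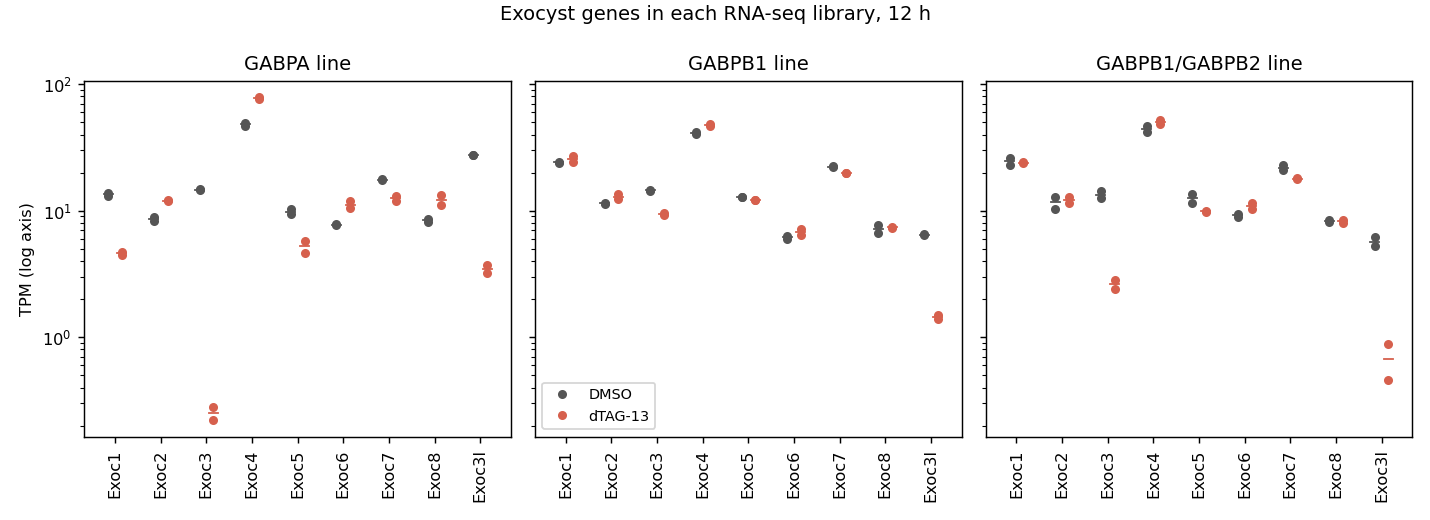
TPM of each exocyst gene on a log axis in the 12 RNA-seq libraries at 12 h, with 1 point per library, a short bar at the mean of the 2 libraries, and 1 panel per degron line. Exoc3 fell to 0.22 and 0.28 TPM with dTAG-13 in the GABPA line, while Exoc4 stayed the highest member in every group.

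Under DMSO the paralog Exoc3l was the member that differed most between the GABPA and GABPB1 lines. Its level in DMSO was 27.3 and 27.6 TPM in the GABPA line, 6.39 and 6.52 TPM in the GABPB1 line, and 5.24 and 6.17 TPM in the GABPB1/GABPB2 line. The GABPA libraries stood apart from the other two lines, which were close to each other. On the log2 scale the GABPA line minus the GABPB1 line was 2.35 ± 0.119 (SE, adjusted p = 8.39e-11). Of the 9 members 1 was lower and 5 were higher in that contrast, where 61.2% of all 16396 genes were called (29.7% lower and 31.5% higher), that is, had an adjusted p under 0.05. The lower one was Exoc1 (-0.58 ± 0.0827), and the other higher ones were Exoc6 (0.60 ± 0.0997), Exoc4 (0.49 ± 0.0636), Exoc8 (0.48 ± 0.0958) and Exoc3 (0.27 ± 0.0835, adjusted p = 0.01). The call on Exoc3 was lost without DMSO library 2 of the GABPA line (adjusted p = 0.0582) and without either DMSO library of the GABPB1 line (0.0771 and 0.0971). Between the DMSO libraries of the GABPB1/GABPB2 and GABPB1 lines 1 member was called, Exoc6 (0.52 ± 0.0979, adjusted p = 0.000804), against 30% of all genes, 15% in each direction. Without DMSO library 2 of the GABPB1/GABPB2 line, 3 members were called. Exoc5 was at -0.25 ± 0.106 in the GABPA minus GABPB1 contrast (adjusted p = 0.0536) and was called lower in 6 of its 10 alternatives, and Exoc2 in 1. The summed level of 4 markers of two-cell-like cells (Zscan4c, Zscan4d, Zscan4f and Tcstv1) also differed between the lines under DMSO. It was 7.73 and 6.03 CPM in the GABPA line, 0.698 and 0.597 CPM in the GABPB1 line, and 8.46 and 11.6 CPM in the GABPB1/GABPB2 line. All 4 were called higher in the GABPA line than in the GABPB1 line, and 3 of 4 in the GABPB1/GABPB2 line, where Exoc3l was low. Their part in the results was not tested. The labels give no batch, so line and any batch cannot be told apart in these 2 contrasts.

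After 12 h of dTAG-13 in the GABPA line the exocyst genes split. Exoc3 was nearly lost, Exoc3l and Exoc1 fell strongly, Exoc5 and Exoc7 fell moderately, and Exoc2, Exoc4, Exoc6 and Exoc8 rose. All 9 members were called, 5 lower and 4 higher, against 46.5% of all genes (21.9% lower and 24.6% higher). Among the 9511 genes with a mean log2 CPM of 3 or more, which include all 9 members, 27% were lower and 36.3% higher. The median log2 fold change was -0.46 over the members and 0.06 over all genes tested. In bulk RNA, fewer cells of a type and less RNA per cell cannot be told apart.

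The module of Exoc1 to Exoc4 held the largest changes in both directions. Exoc3, the subunit that contacts SNARE proteins, had 53.2 and 54.2 CPM in DMSO and 0.805 and 1.06 CPM with dTAG-13. The groups lie far apart, and the log2 fold change of -5.83 ± 0.156 (adjusted p = 3.47e-14) was the 11th lowest of the 16396 genes tested. Exoc1, a subunit that binds the plasma membrane, went from 33.5 and 31.6 CPM to 10.9 and 11.6 CPM, a log2 fold change of -1.53 ± 0.101 (adjusted p = 1.72e-09). Exoc4 went the other way, from 173.0 and 165.9 CPM to 282.1 and 272.5 CPM, a log2 fold change of 0.71 ± 0.0634 (adjusted p = 7.92e-08). The Ral effector Exoc2 rose, with 28.1 and 25.9 CPM in DMSO and 37.9 and 38.9 CPM with dTAG-13 (0.51 ± 0.104, adjusted p = 0.000684). None of these 4 genes had overlapping groups. By length-scaled level, Exoc3 moved from the fourth place among the members to the last, at 0.22 and 0.28 TPM, below Exoc3l at 3.19 and 3.73 TPM. The next lowest subunits were Exoc1 (4.49 and 4.70 TPM) and Exoc5 (4.67 to 5.78 TPM), whose ranges overlapped.

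In the module of Exoc5 to Exoc8 no change was as large as those of Exoc3 and Exoc1. Exoc5, which links Exoc6 to the rest of the complex, had 29.7 and 25.9 CPM in DMSO and 17.3 and 15.7 CPM with dTAG-13 (-0.75 ± 0.119, adjusted p = 6.31e-05). Exoc7, a membrane-binding subunit, had 41.0 and 40.3 CPM and then 30.9 and 28.1 CPM (-0.46 ± 0.0795, adjusted p = 0.000134). The Rab-binding Exoc6 rose, with 19.9 CPM in both DMSO libraries and 27.3 and 31.01 CPM with dTAG-13 (0.55 ± 0.0979, adjusted p = 0.000177). Exoc8, the other Ral effector, had 29.3 and 27.8 CPM in DMSO and 45.7 and 38.8 CPM after treatment, a rise (0.57 ± 0.0948, adjusted p = 0.000105). The 2 DMSO and 2 dTAG-13 libraries did not overlap for any of the 4. The paralog Exoc3l, outside both modules, fell from 48.0 and 48.5 CPM to 6.63 and 5.72 CPM, which was 7.82-fold lower (log2 fold change -2.97 ± 0.134, adjusted p = 1.48e-11). The 9 calls held under all 10 other settings and left-out libraries tried, with a highest adjusted p of 0.0158, for Exoc2.

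**Figure D2:**
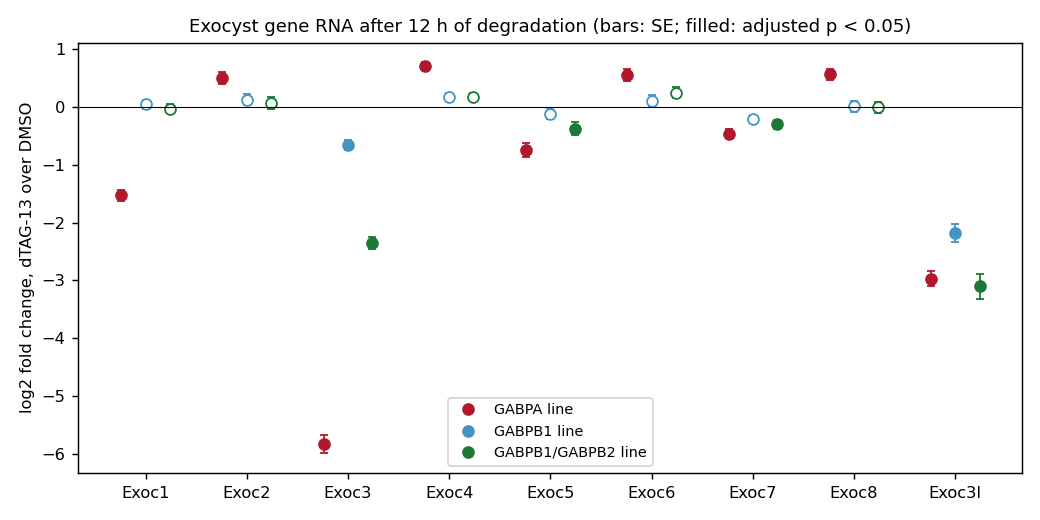
Log2 fold change of each exocyst gene after 12 h of dTAG-13 over DMSO in RNA-seq of the 3 degron lines, with bars for the SE and filled points for an adjusted p under 0.05. All 9 points of the GABPA line are filled, while Exoc3 and Exoc3l are the members filled in every line.

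Degrading the partner subunits left most exocyst genes without a call. In the GABPB1 line 2 of 9 members were called, both lower, against 6.75% of all genes (5.46% lower and 1.28% higher). Exoc3 had 44.9 and 44.2 CPM in DMSO and 27.4 and 28.9 CPM with dTAG-13 (-0.66 ± 0.0841, adjusted p = 9.76e-05). For Exoc3l the DMSO libraries had 9.50 and 9.43 CPM and the treated ones 2.13 and 2.03 CPM, which was 4.55-fold lower (-2.19 ± 0.155, adjusted p = 2.43e-07). For both genes the treated libraries lay below the DMSO libraries. The other 7 members had log2 fold changes between -0.21 (Exoc7) and 0.18 (Exoc4), with adjusted p from 0.0938 upward. When the 4 libraries of this line were fitted alone, Exoc4 (0.19, adjusted p = 0.00113) and Exoc7 (-0.20, adjusted p = 0.00839) were also called. Exoc1, which fell strongly in the GABPA line, had 47.7 and 49.5 CPM in DMSO and 52.6 and 48.1 CPM with dTAG-13 (0.05 ± 0.0776, adjusted p = 0.806).

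In the GABPB1/GABPB2 line 4 members were lower and none was higher, against 12.8% of all genes called, 9.26% lower and 3.53% higher. Exoc4 was called higher in 2 of its 10 alternatives. Exoc3 fell from 36.3 and 41.4 CPM to 6.92 and 8.32 CPM, which was 5.11-fold lower (-2.35 ± 0.107, adjusted p = 1.54e-10). Exoc3l fell from 7.33 and 8.60 CPM to 0.638 and 1.26 CPM, which was 8.56-fold lower (-3.10 ± 0.214, adjusted p = 2.41e-08). The remaining calls were small and less secure. Exoc5 had 30.6 and 38.5 CPM in DMSO and 26.3 and 26.8 CPM with dTAG-13 (-0.37 ± 0.108, adjusted p = 0.0289). Exoc7 had 42.0 and 38.6 CPM in DMSO and 32.9 and 32.7 CPM with dTAG-13 (-0.30 ± 0.0767, adjusted p = 0.0151). Both of these calls were lost when the 4 libraries of this line were fitted alone (adjusted p = 0.0784 and 0.093) and without either dTAG-13 library (0.169 and 0.122 for Exoc5, 0.11 and 0.103 for Exoc7). Exoc5 also lost its call without DMSO library 2 (0.193), and Exoc7 without DMSO library 1 (0.0979). Exoc1 had 43.7 and 49.7 CPM in DMSO and 44.8 and 46.6 CPM with dTAG-13 (-0.03 ± 0.0816, adjusted p = 0.881), so its groups overlapped.

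Whether a member responded differently in 2 lines was tested on differences of log2 fold changes. The 3 responses share no libraries, but each difference uses the same GABPA or GABPB1/GABPB2 values as the comparisons above. Between the GABPA and GABPB1 lines 4 members responded lower and 3 higher, against 25.7% of all genes called, 13.3% lower and 12.5% higher. Exoc3 differed by -5.17 ± 0.192 (adjusted p = 1.5e-11) and Exoc1 by -1.58 ± 0.128 (adjusted p = 7.94e-08). Exoc5 differed by -0.63 ± 0.156 and Exoc3l by -0.78 ± 0.216 (adjusted p = 0.0126). Exoc8 (0.55 ± 0.133), Exoc4 (0.53 ± 0.0893) and Exoc6 (0.45 ± 0.138) responded higher in the GABPA line. The call on Exoc6 was lost in 9 of 14 alternatives. Among these were DESeq2 (adjusted p = 0.054) and 7 of 8 fits that left out 1 library. Exoc3l lost its call without dTAG-13 library 2 of the GABPA line (0.0508). Exoc8 lost its call without DMSO library 1 (0.0888) or dTAG-13 library 1 (0.0592) of the GABPB1 line.

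Between the GABPA and GABPB1/GABPB2 lines 2 members responded lower and 3 higher, against 20.7% of all genes, 10.7% lower and 10.1% higher. The lower ones were Exoc3 (-3.48 ± 0.226, adjusted p = 2.5e-08) and Exoc1 (-1.50 ± 0.13, adjusted p = 4.25e-07). The higher ones were Exoc8 (0.57 ± 0.137), Exoc4 (0.54 ± 0.0902) and Exoc2 (0.44 ± 0.147, adjusted p = 0.0431). Exoc2 lost its call in 10 of 14 alternatives. Among these were DESeq2 (0.0539) and 7 of 8 fits that left out 1 library. Exoc8 lost its call without dTAG-13 library 1 of the GABPB1/GABPB2 line (0.0664). For Exoc3l the difference was 0.13 ± 0.278 (adjusted p = 0.803), with a 95% interval from -0.41 to 0.68. Between the GABPB1/GABPB2 and GABPB1 lines Exoc3 was the 1 member called (-1.69 ± 0.137, adjusted p = 2.76e-06), against 1.01% of all genes, 0.927% lower and 0.0854% higher. Its fall thus differed between each pair of lines and was largest in the GABPA line and smallest in the GABPB1 line. Exoc3l differed by -0.91 ± 0.295 between the GABPB1/GABPB2 and GABPB1 lines, which was not called (adjusted p = 0.267).

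SLAM-seq followed the changes over time in the GABPA line. New RNA of Exoc3 and Exoc5 was called lower from 2 h on, and their total RNA from 4 h on, with the larger falls for Exoc3. New RNA of Exoc3l was called lower at 12 h, and that of Exoc4 and Exoc6 was called higher then, with no call at 1, 2 or 4 h. CPM of converted reads is relative to all converted reads of the library. The share of reads that were converted differed between the times. In DMSO it was 5.441% and 6.075% at 1 h and 14.12% and 13.99% at 12 h. In the DMSO group shared by 2 h and 4 h it was 10.42% and 11.35%. The part of this difference in the timing of the calls was not tested.

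At 1 h none of the 9 members was called in new RNA by edgeR or by DESeq2, against 1.78% of all 15887 genes (1.72% lower and 0.0567% higher), and 2 members had an unadjusted p under 0.05. These were Exoc3 (-0.90 ± 0.363, adjusted p = 0.333), with 30.2 and 32.1 CPM in DMSO and 14.6 and 18.9 CPM with dTAG-13, and Exoc5 (-0.54 ± 0.23, adjusted p = 0.383). These Exoc3 values rest on 28, 36, 16 and 18 converted reads.

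At 2 h 2 members were lower, against 3.35% of all genes, 3.21% lower and 0.145% higher. Exoc3 had 37.4 and 44.4 CPM in DMSO and 8.59 and 18.6 CPM with dTAG-13 (-1.61 ± 0.322, adjusted p = 0.00336). Exoc5 had 72.7 and 79.6 CPM in DMSO and 33.7 and 51.4 CPM with dTAG-13 (-0.85 ± 0.213, adjusted p = 0.0223). The treated libraries lay below both DMSO libraries, with library 1 the lower of the treated pair for both genes. Without that library neither gene was called (adjusted p = 0.14 and 0.432), and Exoc5 also lost its call without either DMSO library (0.053 and 0.169), with DESeq2 (0.0679) and when these libraries were fitted alone (0.11).

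At 4 h the same 2 members were lower, against 4.02% of all genes (3.91% lower and 0.113% higher), and the DMSO libraries were those shared with 2 h. Exoc3 had 4.94 and 5.12 CPM with dTAG-13 (-3.00 ± 0.404, adjusted p = 3.1e-05). Exoc5 had 37.5 and 38.0 CPM (-1.01 ± 0.224, adjusted p = 0.00687), a call that was lost without either treated library (0.0804 and 0.0742). Compared directly, the 4 h and 2 h dTAG-13 groups gave no called member and no called gene at all (0% of 15887), by edgeR, and no called member by DESeq2. With unadjusted p under 0.05 were Exoc3 (-1.39 ± 0.479) and Exoc1 (0.67 ± 0.243).

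At 12 h 3 members were lower and 2 higher in new RNA, against 30.6% of all genes, 18.3% lower and 12.3% higher. New RNA of Exoc3 measured 64.2 and 44.2 CPM in the DMSO libraries and 2.17 and 1.70 CPM in the treated ones (-4.70 ± 0.381, adjusted p = 1.62e-09). Exoc3l went from 16.2 and 19.4 CPM to 1.20 and 0.567 CPM, on 35, 43, 5 and 1 converted reads (-4.06 ± 0.52, adjusted p = 1.95e-06). For Exoc5 the DMSO libraries held 61.0 and 60.9 CPM and the treated ones 40.4 and 38.6 CPM (-0.62 ± 0.204, adjusted p = 0.0233). Exoc4, the member with the highest TPM in RNA-seq, rose, with 542.9 and 440.7 CPM in the DMSO libraries against 1305 and 851 CPM after treatment (1.14 ± 0.226, adjusted p = 0.00046). Exoc6 had 38.8 and 30.7 CPM in DMSO and 56.8 and 49.3 CPM with dTAG-13, a rise (0.62 ± 0.238, adjusted p = 0.0498). These last groups do not overlap, but Exoc6 lies at the threshold and lost its call in 6 alternatives, with an adjusted p of up to 0.483. Exoc5 lost its call with DESeq2 (0.0809) and without any 1 of the 4 libraries (0.0953 to 0.13). Among the members not called, Exoc7 (-0.99 ± 0.382, adjusted p = 0.0521) was closest to the threshold and was called in 5 of 11 alternatives, with adjusted p from 0.00772 to 0.0494.

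**Figure D3:**
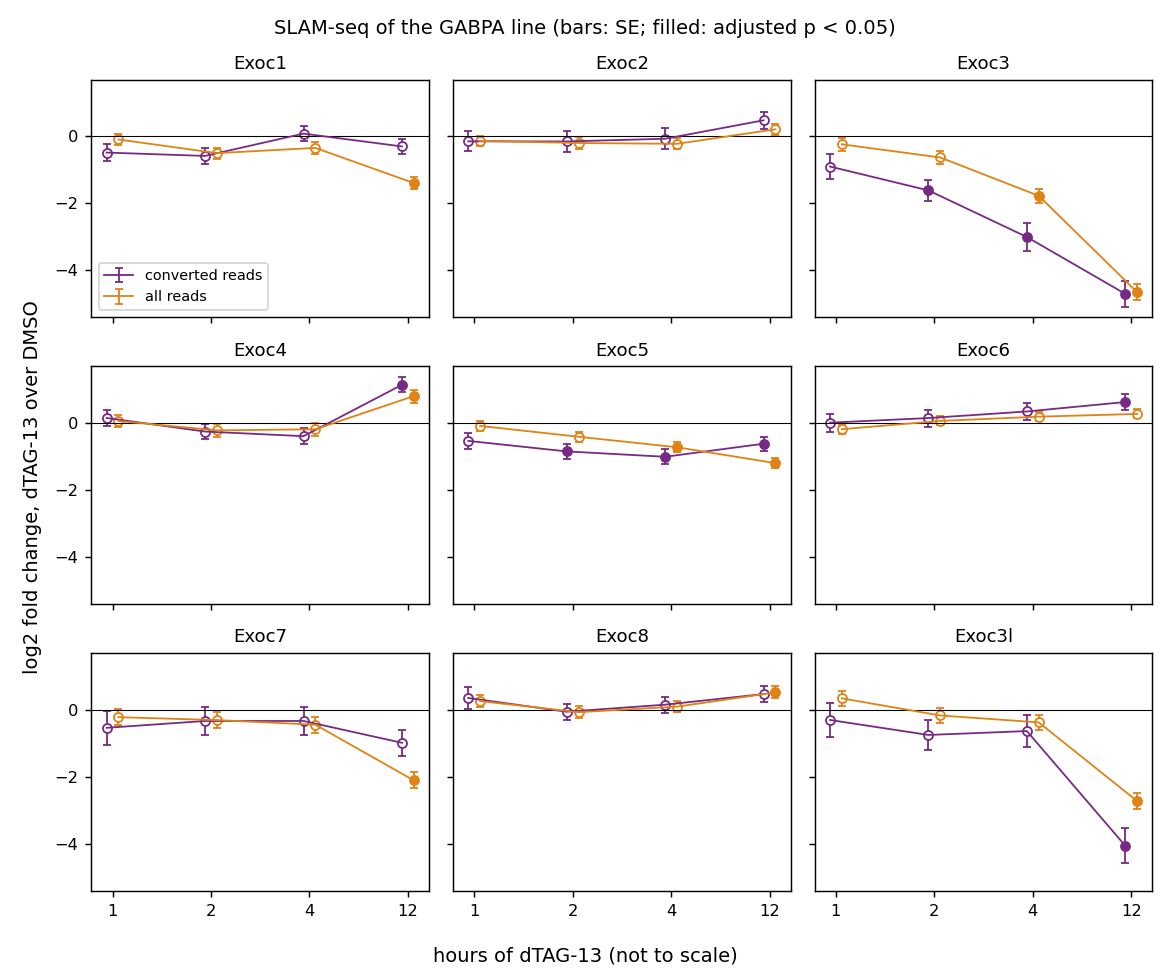
Log2 fold change of dTAG-13 over DMSO for each exocyst gene at 1, 2, 4 and 12 h in SLAM-seq of the GABPA line, for converted reads (new RNA) and all reads, with bars for the SE and filled points for an adjusted p under 0.05. New Exoc3 RNA passes the threshold from 2 h and all Exoc3 reads from 4 h.

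The 12 h and 1 h responses in new RNA differed for 2 members, Exoc3 (-3.79 ± 0.561, adjusted p = 0.000171) and Exoc3l (-3.75 ± 0.759, adjusted p = 0.00378), against 6.84% of all genes, 4.7% lower and 2.14% higher. DESeq2 gave no adjusted p for Exoc3l here. The converted share of the DMSO libraries also differed between 1 h and 12 h, as given above, and its part was not tested. The difference for Exoc4 was 0.99 ± 0.32 (adjusted p = 0.0634), and it was called higher in 5 of 15 alternatives. Scaling the converted reads by the size of all reads, which keeps a change in the overall share of new RNA, moved the median of all genes to -0.14, -0.17, -0.26 and -0.30 at 1, 2, 4 and 12 h. With that scaling, Exoc6 at 12 h was 0.28 (adjusted p = 0.483), and Exoc7 at 12 h was called (-1.33, adjusted p = 0.00772). Exoc3 at 2, 4 and 12 h stayed past the threshold with it.

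All reads of the same libraries gave the total level. At 1 h and at 2 h no member was called by edgeR or DESeq2, against 0.00371% and 0.215% of all 26957 genes (at 2 h 0.211% lower and 0.00371% higher), and 0 and 3 members had an unadjusted p under 0.05. At 4 h Exoc3 (-1.77 ± 0.204, adjusted p = 0.00013) and Exoc5 (-0.73 ± 0.149, adjusted p = 0.0138) were lower, against 2.13% of all genes, 2.1% lower and 0.0334% higher. For Exoc3 this was a change from 32.4 and 41.2 CPM to 10.1 and 11.4 CPM. Exoc5 lost its call without DMSO library 2 (0.168), without either 4 h library (0.135 and 0.121), and when these libraries were fitted alone (0.0914).

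At 12 h 5 members were lower and 2 higher in all reads, against 57.4% of all genes (27.6% lower and 29.8% higher), whose median log2 fold change was 0.14. Exoc3 was at -4.65 ± 0.233, Exoc3l at -2.73 ± 0.234, Exoc7 at -2.11 ± 0.242, Exoc1 at -1.40 ± 0.17 and Exoc5 at -1.20 ± 0.15, with adjusted p of at most 1.16e-05. Exoc4 was at 0.80 ± 0.193 (adjusted p = 0.00267) and Exoc8 at 0.51 ± 0.18 (adjusted p = 0.0237). Exoc4 lost its call without dTAG-13 library 1 (0.0548). Exoc8 lost its call in 6 of 10 alternatives. Among these were DESeq2 (0.0802) and the fits without dTAG-13 library 1 or without either DMSO library. The 5 lower members were the 5 that were lower in RNA-seq of this line. These levels moved with the filter. Under a stricter filter, which keeps genes whose mean log2 CPM is 3 or more, the log2 fold change of Exoc3 was -4.22, that of Exoc1 -0.97, that of Exoc5 -0.77 and that of Exoc4 1.23. Exoc6 (0.70, adjusted p = 0.000346) and Exoc2 (0.64, adjusted p = 0.00288) were then called higher as well, which made 5 members lower and 4 higher, against 31% and 33.4% of the 11931 genes left. Exoc7 had 52.3 and 42.1 CPM in DMSO and 12.4 and 9.29 CPM with dTAG-13, a larger fall than the -0.46 ± 0.0795 of RNA-seq. The difference between the 2 assays was not tested.

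For Exoc1, total RNA was called lower at 12 h and new RNA was not. Its total level fell from 25.3 and 30.7 CPM to 11.4 and 9.78 CPM, while its converted reads stood at 35.6 and 49.2 CPM in the DMSO libraries and 30.8 and 39.1 CPM in the treated ones (-0.30 ± 0.229, adjusted p = 0.329), with overlapping groups. The new RNA value was -0.65 when converted reads were scaled by the size of all reads (adjusted p = 0.0515), -0.04 without DMSO library 2 (0.941) and -0.06 without dTAG-13 library 1 (0.91). In the DMSO libraries 77 of 373 reads (20.6%, 95% Wilson interval 16.8% to 25.0%) and 109 of 471 reads (23.1%, 19.6% to 27.2%) of Exoc1 were converted. In the dTAG-13 libraries these were 128 of 390 (32.8%, 28.3% to 37.6%) and 69 of 162 (42.6%, 35.2% to 50.3%), above both DMSO libraries. At 1 and 2 h the order was the other way. The share was 14.6% and 13.3% in DMSO against 11.9% and 7.46% with dTAG-13 at 1 h. At 2 h it was 26.7% and 25.7% against 22.9% and 20.8%, while the 4 h dTAG-13 libraries, at 26.1% and 30.8%, lay between and above the 2 h DMSO values. These differences in share were not tested. The intervals cover counting error only, since reads without molecular identifiers are not independent molecules. Over all genes the converted share was 14.12% and 13.99% in DMSO and 13.84% and 12.05% with dTAG-13. Gene lists described further below also had lower median log2 fold changes in all reads than in new RNA at 12 h. These were -0.87 against -0.25 for other tethers, -0.63 against -0.07 for GTPases and regulators, and -0.63 against -0.10 for fusion genes. The median of the exocyst paralogs was 0.52 against 0.45. The 2 readouts were filtered and scaled separately, and these gaps moved with the filter. Under the stricter filter they were -0.44 against -0.19 for other tethers and -0.31 against -0.14 for GTPases and regulators. Fusion genes were then at -0.35 against -0.05, and the exocyst paralogs at 0.90 against 0.72. Whether the rise in share was particular to Exoc1 was not tested.

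The other falling members differed in this share. Exoc7 had 7.00% and 5.43% converted reads in DMSO at 12 h and 10.4% and 11.04% with dTAG-13, so its share was higher while its total was lower. Exoc3l went the other way, from 15.2% in both DMSO libraries to 5.26% and 2.63%. Exoc3 was lower with dTAG-13 at 1 h (3.496% and 3.54% against 1.86% and 2.18%), at 2 h (12.0% in both DMSO libraries against 4.28% and 6.27%) and at 4 h (4.10% and 4.17%). At 12 h its groups overlapped, at 15.4% and 10.6% against 12.5% and 6.25%, the last 2 on 72 and 48 reads in all. These shares were not tested and are given as values.

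**Figure D4:**
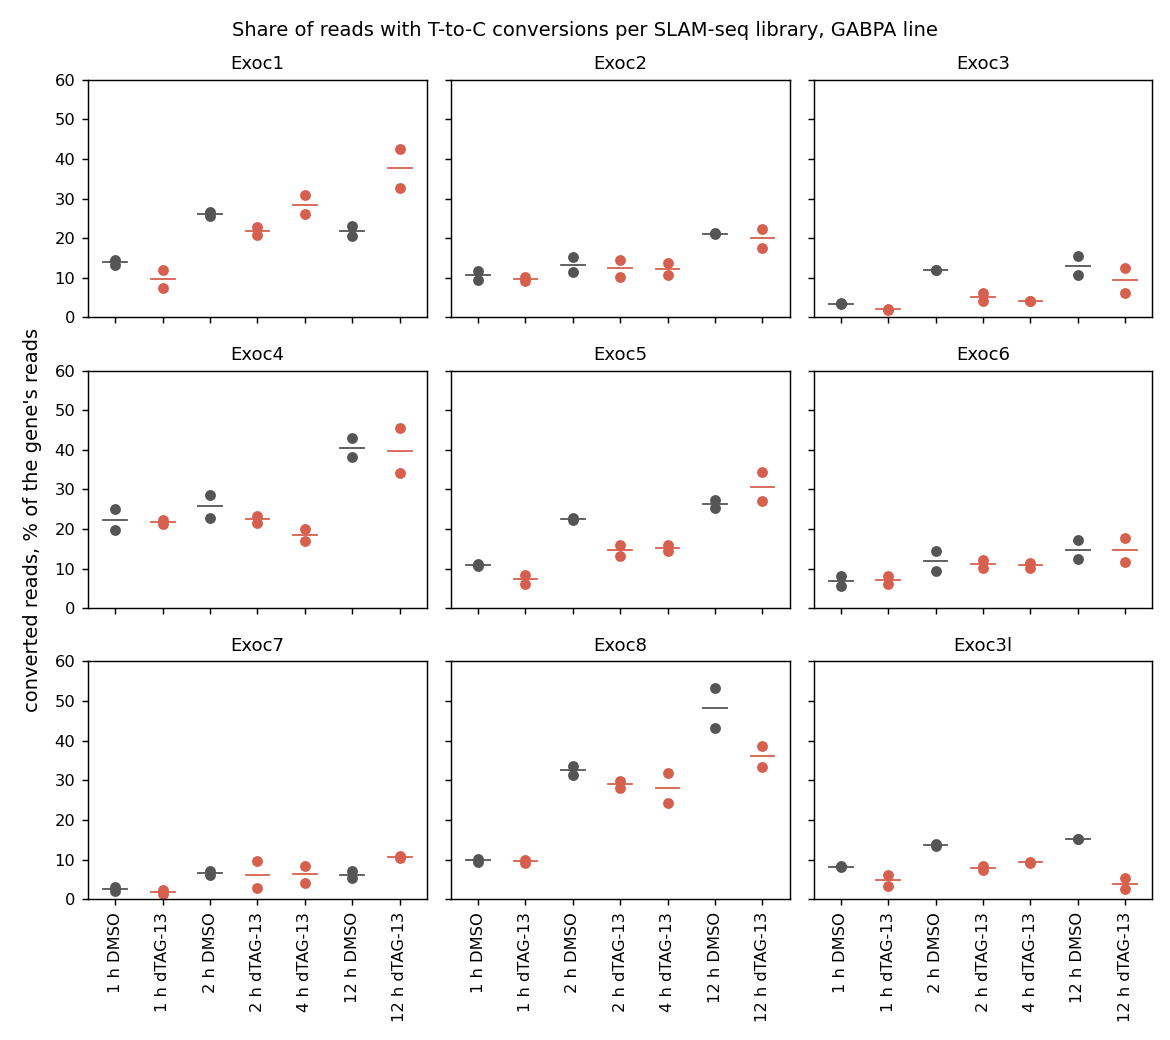
Percentage of each exocyst gene's reads that carried T-to-C conversions in the 14 SLAM-seq libraries of the GABPA line, with 1 point per library and a short bar at the mean of the 2. For Exoc1 the 12 h dTAG-13 libraries (32.8% and 42.6%) lie above the DMSO libraries, and for Exoc3l (5.26% and 2.63%) they lie below. The DMSO libraries marked 2 h are those shared by the 2 h and 4 h dTAG-13 groups.

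The genes around the members bear on how their reads were counted. In mm39, the build of the SLAM-seq intervals, Exoc3 spans chr13:74317607-74356851, Exoc3l chr8:106016556-106022733 and Exoc5 chr14:49241547-49304110, all on the minus strand. Exoc1 spans chr5:76677158-76718141 on the plus strand. In RNA-seq the posterior SD of the RSEM count, which reflects reads shared between genes, was 0 except for Exoc3l (at most 2.43% of the count) and Exoc5 (at most 0.7% of the count). In SLAM-seq, reads that also mapped elsewhere made up to 9.75% of the reads of Exoc1 and 9.22% of those of Exoc4, and at most 5.26% for the other members. For Exoc1 at 12 h they were 8 of 373 and 9 of 471 reads in DMSO and 18 of 390 and 14 of 162 with dTAG-13. Exoc5 overlaps Gm49204 on the same strand over 4640 bases, with a mean RNA-seq count of 41.8 for Gm49204. In RNA-seq of the GABPA line Gm49204 was at 0.91 ± 0.473 after dTAG-13 (adjusted p = 0.129). Under DMSO it was lower in the GABPA than in the GABPB1 line (-2.63 ± 0.362, adjusted p = 8.71e-06). Exoc5 also overlaps Ap5m1, a subunit gene of an adaptor complex on the opposite strand, over 557 bases. Ap5m1 was lower too, by RNA-seq of the GABPA line at 12 h (-0.64 ± 0.113, adjusted p = 0.000156) and in all SLAM-seq reads at 12 h (-1.59 ± 0.162). The RefSeq window of Ap5m1 held the letters CCGGAAG at 2 places on either strand. Since strand handling was not given in the sources used here, reads in the shared stretch cannot be told apart. Exoc3l overlaps the antisense gene Gm20163 over 1562 bases, and the latter was lower in all SLAM-seq reads at 12 h (-2.54 ± 0.247) on a mean of 77.4 reads against the same limit. Exoc6 overlaps a gene listed with no symbol on the opposite strand over 6678 bases, which had a mean of 142.1 SLAM-seq reads and was at 0.20 ± 0.207 in all reads at 12 h (adjusted p = 0.414), with the same limit. Exoc8 starts 181 bases from Sprtn on the other strand, whose RNA-seq log2 fold change was 0.29 ± 0.0836 (adjusted p = 0.00836), a call lost without DMSO library 2 (0.0696) or dTAG-13 library 1 (0.0643).

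Genes that work with the exocyst were counted from lists, and the matching shares over all genes in the GABPA line were 21.9% lower and 24.6% higher by RNA-seq. They were 18.3% and 12.3% in new RNA at 12 h, and 27.6% and 29.8% in all SLAM-seq reads at 12 h. Of 16 GTPases and regulators that act on it, 4 were lower and 6 higher in RNA-seq of the GABPA line, with a median of 0.01 against 0.06 over all genes. The largest changes were in Rgl2, a Ral exchange factor (-1.28 ± 0.0854), Rala, the GTPase that Exoc2 and Exoc8 bind (-0.95 ± 0.0889), and Rgl1, another exchange factor (0.83 ± 0.275, adjusted p = 0.0198). The call on Rgl1 was lost without dTAG-13 library 1 (0.299) or DMSO library 2 (0.17). Of 12 tested genes of vesicle fusion at the plasma membrane, 2 were lower and 6 higher by RNA-seq. The largest changes were in the SNARE genes Vamp2 (0.83 ± 0.123), Stx4a (-0.67 ± 0.119) and Vamp3 (-0.63 ± 0.103). Of the paralogs outside the members 2 passed the filter. Exoc3l2 was higher (0.92 ± 0.3, adjusted p = 0.0182), a call lost without dTAG-13 library 1 (0.292) or DMSO library 1 (0.164), and Exoc6b was at 0.12 ± 0.0662 (adjusted p = 0.151). In new RNA at 12 h, 5 of the 16 GTPases and regulators were lower and 1 higher, and 2 of the 12 fusion genes were lower and 1 higher. There Rgl2 was at 0.09, Rala at -0.96 and Rgl1 at 0.14, while Vamp2 was at 1.07, Stx4a at -0.008 and Vamp3 at -0.80. In all SLAM-seq reads at 12 h, 10 of the 16 were lower and 2 higher (median -0.63), and 7 of the 12 were lower and 1 higher (median -0.63), against a median of 0.14 over all genes. Under the stricter filter these became 6 lower and 4 higher of 15 (median -0.31) and 5 lower and 1 higher of 10 (median -0.35). The differences between these counts and those of RNA-seq were not tested.

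Other tethering complexes related in structure, COG at the Golgi, GARP and EARP at endosomes, and NRZ at the endoplasmic reticulum, also had members that fell steeply. In RNA-seq, 7 of these 16 genes were lower and 4 higher, with a median of -0.17. The COG subunits Cog8 (-3.04 ± 0.0885), Cog1 (-2.61 ± 0.107) and Cog3 (-2.53 ± 0.118) were lowest. In new RNA at 12 h 5 of the 16 were lower and 2 higher. In all SLAM-seq reads at 12 h, 14 of the 16 were lower and none was higher (median -0.87), and under the stricter filter it was 9 lower and 1 higher (median -0.44). By RNA-seq log2 values the falls of these 3 were smaller than that of Exoc3, which was not tested.

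The 5 genes whose pattern was most like that of Exoc3 were sought among 8896 genes by the Pearson correlation of group means over 13 groups, centred within each assay. They were Thoc5 (r = 0.991), a subunit of the mRNA export complex THO, Pggt1b (0.982), a prenyltransferase subunit, Gpatch2l (0.98), Wdr24 (0.978), a subunit of the GATOR2 complex, and Sec31a (0.977), a COPII coat subunit. The 13 groups share controls and the treatment, so these values are a description. Their RNA-seq log2 fold changes in the GABPA, GABPB1 and GABPB1/GABPB2 lines were -3.47, -0.60 and -1.77 for Thoc5 and -4.68, -0.35 and -0.99 for Wdr24. Both have the order seen for Exoc3, with the GABPA line lowest and the GABPB1 line nearest to 0. Since the genes were chosen by a correlation that includes these RNA-seq groups, this order follows largely from the choice and is no separate result.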

How the data were processed

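The series holds 92 samples in its labels, of which the 26 RNA-seq and SLAM-seq libraries were used; the other 66 belong to other assays and were not used here. The members and the gene lists were chosen with earlier results of these data known. For RNA-seq the authors deposited RSEM tables with expected counts, TPM and the posterior SD of the count per gene, and for SLAM-seq slamdunk 0.4.3 tables over whole gene intervals, per the file headers, with counts of all reads and of T-to-C reads. The submitters' processing notes list Trim Galore 0.6.7, STAR 2.7.11a, RSEM 1.3.1 and mm39. Strand handling was not given in the sources used here.

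Expected counts were rounded to whole numbers. Each assay was fitted with all its libraries in edgeR 4.0.16 (R 4.3.3) by the quasi-likelihood test, with TMM scaling, filterByExpr (minimum count 10, total 15) and p-values adjusted by Benjamini and Hochberg's method over every gene in the fit. A gene was called at an adjusted p under 0.05. Of 56953 gene IDs, 16396 were tested in RNA-seq, 15887 in T-to-C reads and 26957 in all SLAM-seq reads. All p-values in the text are from this test unless DESeq2 1.42.0 is named. The SE is the log2 fold change over the square root of F. CPM use TMM-scaled library sizes. The alternatives were DESeq2, its size factors, no filter, an average log2 CPM of at least 3, the libraries of a comparison alone, a replicate block, each library left out and, for T-to-C reads, the scaling of all reads. The script was tested on simulated counts. Named genes other than the members were up to 3 called genes with the largest absolute change in the GABPA line per list, and the 5 genes most like Exoc3. Neighbouring genes and Gabpa were named for their place or role. Replicate libraries differed by more than sampling noise (chi-square per degree of freedom 1.96 to 31.5), so none was merged.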

Additional observations from a re-analysis of the deposited data

Results flagged for a closer look

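The response to dTAG-13 differed between lines or times for 15 tests of members, each with an adjusted p under 0.05 in edgeR's quasi-likelihood test of the difference of log2 fold changes. Between the GABPA and GABPB1 lines the differences were -5.17 for Exoc3, -1.58 for Exoc1, -0.78 for Exoc3l, -0.63 for Exoc5, 0.45 for Exoc6, 0.53 for Exoc4 and 0.55 for Exoc8. Between the GABPA and GABPB1/GABPB2 lines they were -3.48 for Exoc3, -1.50 for Exoc1, 0.44 for Exoc2, 0.54 for Exoc4 and 0.57 for Exoc8. Exoc3 differed by -1.69 between the GABPB1/GABPB2 and GABPB1 lines. In new RNA of the GABPA line, the responses at 12 h and 1 h differed by -3.79 for Exoc3 and -3.75 for Exoc3l.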

How the results depend on the processing

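Each group held 2 libraries, and converted reads were the smaller counts. Over single members, 736 of 792 values with 1 library left out and 984 of 1022 under the other settings kept their direction and their side of the threshold, while 47 and 17 lost a call and 9 and 21 gained one. Signs changed in 73 of these values and in 2 of the other named genes, none called with or without the change. Fitting the libraries of a comparison alone gave 4 called members in the GABPB1 line and 2 in the GABPB1/GABPB2 line, and 1 at 2 h in new RNA and 1 at 4 h in all reads. DESeq2 called 1 member at 2 h and 3 at 12 h in new RNA, and 1 for the difference between 12 h and 1 h. Leaving out 1 library gave 2 to 4 called members in the GABPB1/GABPB2 line, 3 to 5 for the GABPA minus GABPB1/GABPB2 responses, and 1 to 3 for the DMSO libraries of the GABPB1/GABPB2 and GABPB1 lines. In new RNA it gave 0 to 2 at 2 h, 1 to 2 at 4 h and 3 to 4 at 12 h, and in all reads 1 to 2 at 4 h. The causes were not tested. Replicate numbers were shared by the groups, but the deviations of same-numbered libraries correlated by -0.074 to 0.383, so the numbers were not taken as pairs. With the replicate block, 1 member call changed, Exoc7 at 12 h in new RNA (-1.01, adjusted p = 0.0392). Without the filter, the median of all genes in all reads at 12 h moved from 0.14 to 0.55, and under the stricter filter, a mean log2 CPM of 3 or more, to 0.05.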
